A study of Mus musculus with 12 samples.

Results

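The Zscan4 family was read from 12 RNA-seq libraries of mouse embryonic stem cells. Its members were taken as the gene rows whose symbol starts with Zscan4. These were 5 genes, Zscan4b, Zscan4c, Zscan4d, Zscan4e and Zscan4f, of 27776 genes listed in the transient table and of 27590 in each of the unsorted and sorted tables. All 5 passed the filter on low counts in every comparison, so no member was left untested. In fits with the cells kept without doxycycline, Zscan4b passed only through the other groups.

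The study expressed mDUX, a mouse double-homeobox transcription factor, in embryonic stem cells grown on gelatin with serum, leukemia inhibitory factor and the kinase inhibitors of 2i (CHIR99021 and PD0325901). The 12 libraries formed 6 groups of 2, called A and B here. In the transient set, cells expressed mDuxCA, a codon-altered mDux without the 3xHA tag, or a control for 24 h, and RNA was sequenced as single-end reads of 50 bp. In the labels the transgene entry of the transient controls equals that of the mDUX cells, and the groups follow the sample titles. The stable cells carried 3xHA-tagged mDuxCA under doxycycline control and the reporter MERVL::EGFP, in which sequence of the retrovirus MERVL switches on green fluorescent protein, and were kept in puromycin and G418. They were read as 125 bp paired-end reads without doxycycline, after 24 h of doxycycline, or after the same induction followed by a sort of GFP-positive from GFP-negative cells. All stable groups shared the transgene, the reporter and the drug selection, and the stable cells came from single-cell clones. No group of cells without the transgene received doxycycline, so in the stable sets the action of doxycycline and that of mDUX cannot be told apart. The sort used the MERVL reporter, which is active in the same cell state as the Zscan4 genes, so the sorted groups were not formed independently of that state. The labels do not tell whether a group's 2 libraries are 2 cultures, so the p-values reflect only how these libraries vary, and that spread may be technical.

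Counted reads per library ran from 14365741 to 53826590. All 10 embryonic stem cell markers (Pou5f1, Nanog, Sox2 and others) were detected in every group, and their summed level ran from 2561 to 7633 RPM, which scales a library by its gene reads alone. The 7 fibroblast feeder markers (6 in the transient table) summed to 2.39 to 3.42 RPM in the transient, uninduced and GFP-negative libraries and to 16.6 to 19.6 in the doxycycline and GFP-positive libraries. Dcn and Postn stood at 0 in the doxycycline cells, Col3a1, Dcn and Lum in the GFP-positive cells and Col3a1, Dcn and Postn in the GFP-negative cells. Of 2 feeder markers tested in the unsorted set 1 rose, Thy1 by 3.60 ± 0.18 on the log2 scale, beside 34.0% of all genes. In the sorted set 3 of 3 tested were higher, beside 34.3% of all genes. Thy1 was higher by 3.76 ± 0.17, Col1a2 by 3.22 ± 0.38 and Col1a1 by 1.62 ± 0.18. Col1a2, at 0.189 CPM in GFP-negative cells, passed the filter on low counts only through the GFP-positive libraries. The 6 primitive endoderm markers summed to 4.83 to 6.69 RPM in the former libraries and to 8.32 to 11.3 in the latter, with none at 0. Of 5 tested in the unsorted set 4 rose and 1 fell, beside 34.0% and 31.1% of all genes. The 1 that fell was Dab2, with a log2 fold change of -1.19 ± 0.43. Gata6, Sox17 and Pdgfra, at 0.188, 0.280 and 0.620 CPM without doxycycline, passed the filter only through the doxycycline libraries. Their rises could hardly have come out otherwise, so no conclusion is drawn from that count. In the sorted set 4 of 5 were higher and 0 lower, beside 34.3% and 32.0%. Sox17 and Gata6, at 0.233 and 0.206 CPM in GFP-negative cells, would not have passed the filter on those libraries alone, so the same limit holds there. The 6 trophectoderm markers moved the other way, from 55.1 and 55.3 RPM without doxycycline to 18.4 and 18.6 with it, and from 33.9 and 34.5 in GFP-negative to 9.26 and 9.60 in GFP-positive cells, where Elf5 stood at 0. The part of these markers in the results was not tested.

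Zscan4 genes encode nuclear proteins with a SCAN domain and zinc fingers. They are a hallmark of the 2-cell embryo, in which the zygotic genome is first switched on. In cultured embryonic stem cells they are transcribed in brief bursts in a small fraction of cells, and they are known there for telomere elongation and genome stability. In earlier work Zscan4d is the predominant member of the 2-cell embryo and Zscan4c of embryonic stem cells. In bulk samples such as these, fewer expressing cells and less RNA per expressing cell cannot be told apart.

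The members lie in a cluster on chromosome 7. By GENCODE on GRCm38 (mm10), Zscan4b spans chr7:10900740-10905050 on the minus strand, Zscan4c chr7:11005745-11010547 on the plus strand and Zscan4d chr7:11161374-11166159 on the minus strand. Zscan4e spans chr7:11306378-11310682 on the minus strand and Zscan4f chr7:11397915-11402318 on the plus strand. Each has 4 exons. The coding sequence holds 505 codons in Zscan4b and Zscan4e and 506 in Zscan4c, Zscan4d and Zscan4f. The annotation lists 9 Zscan4 genes in all between positions 10794242 and 11614112, and Zscan4a, Zscan4-ps1, Zscan4-ps2 and Zscan4-ps3 were not analysed here.

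The transcripts are close copies of one another. Zscan4b and Zscan4e differ at 5 of 1722 aligned bases, and Zscan4c and Zscan4f at 7 of 1806. Zscan4d has no such near copy, and its identity to the other members is 96.6% to 97.8%. Of all 50-base windows of the Zscan4d transcript, 50.4% occur in no other annotated transcript, compared with 14.5% for Zscan4c, 9.65% for Zscan4b, 8.43% for Zscan4e and 4.66% for Zscan4f. With 125-base windows the shares were 80.1% for Zscan4d, 32.7% for Zscan4c, 26.6% for Zscan4b, 19.2% for Zscan4e and 12.1% for Zscan4f. Windows of 50 bases found in no gene outside the 5 members made up 9.72% for Zscan4f, 17.4% for Zscan4c, 52.0% for Zscan4d, 53.7% for Zscan4e and 54.6% for Zscan4b. Between 90.7% (Zscan4e) and 97.0% (Zscan4d) occurred in no gene outside all annotated Zscan4 genes. How the authors' counting treated reads with several matches is not stated in the labels or file headers. This leaves the count of each single member uncertain, and that of Zscan4d least so. The family sums, shares and ratios are uncertain too, since reads may be shared with the Zscan4 genes not analysed here.

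The start regions are shown because the members were all higher together after mDUX, after doxycycline and in GFP-positive against GFP-negative cells. RefSeq (GRCm38.p6) gave a window of 250 bases before to 50 bases after the start for 4 of the 5 members. A stretch of 121 bases is printed for each, read 5′ to 3′ on the gene's own strand. Capitals mark the string TGATAGAATCA, in which TGAT and its reverse complement ATCA stand 3 bases apart, and the TATAAA box. The string was chosen after the sequences were seen. The stretches are Zscan4b at chr7:10905073-10905193 (minus), Zscan4c at chr7:11005579-11005699 (plus), Zscan4d at chr7:11166205-11166325 (minus) and Zscan4f at chr7:11397772-11397892 (plus).
Zscan4b: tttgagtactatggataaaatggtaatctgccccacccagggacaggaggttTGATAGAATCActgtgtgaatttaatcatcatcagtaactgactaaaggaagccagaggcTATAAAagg
Zscan4c: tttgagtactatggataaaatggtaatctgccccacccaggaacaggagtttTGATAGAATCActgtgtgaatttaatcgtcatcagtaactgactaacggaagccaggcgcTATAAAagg
Zscan4d: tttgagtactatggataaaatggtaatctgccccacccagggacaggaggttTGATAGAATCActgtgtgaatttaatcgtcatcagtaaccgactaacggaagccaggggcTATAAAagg
Zscan4f: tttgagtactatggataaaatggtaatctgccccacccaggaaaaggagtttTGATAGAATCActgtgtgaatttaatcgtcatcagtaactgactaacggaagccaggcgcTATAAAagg

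Over this stretch Zscan4c and Zscan4f differed at 1 base, Zscan4b and Zscan4d at 4, Zscan4c and Zscan4d at 4, and Zscan4b and Zscan4f at 7. The string TGATAGAATCA starts 91 bases before the annotated start in Zscan4b and Zscan4f, 114 in Zscan4c and 125 in Zscan4d. The pattern of TGAT, any 3 bases and ATCA, which reads the same on both strands, occurred in 4 of 4 member windows and in 159 of 32851 windows over all genes (0.484%). This pattern was read off the member windows, so its 4 matches were fixed in advance. The windows are also close copies, 95.3% to 99.3% identical in pairs, so matches in them are not independent. The TATAAA box, searched on both strands, occurred in 4 of 4 member windows and in 13.6% of all windows. CCAAT, on either strand, occurred in 4 of 4 member windows and in 37.4% of all. TGATT and AATCA with 1 base between them, which overlaps the first pattern, and TAA and AATCA with 3 bases between them occurred in 0 of 4 member windows and in 0.0335% and 1.03% of all windows. These are matches of letters in annotated windows and describe no binding.

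The transient comparison asked what 24 h of mDUX changes relative to the control. All 5 members rose, by 7.27-fold to 12.1-fold. Summed over the members, the family took 84.8 and 78.5 RPM in the control libraries and 793 and 843 in the mDUX libraries, a ratio of 10.0. Over the same 4 libraries 2.13% of the 14979 genes tested were called higher and 0.00668% lower, and 19.0% were higher without overlap between the groups, beside 5 of 5 members. That background moved with the control libraries: 320 genes were called in all, 614 without control library A and 2589 without control library B, with 5 members called each time.

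Zscan4d had 502 and 660 reads in the control libraries and 7299 and 7150 in the mDUX libraries. The groups did not overlap, and each mDUX library held more than 10 times the reads of either control library. Zscan4d had the largest change among the members, a log2 fold change of 3.60 ± 0.10 (SE; adjusted p = 1.34e-05, quasi-likelihood test in edgeR, adjusted over all genes by Benjamini-Hochberg), and ranked 51 among all genes tested.

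Zscan4c, the member known for embryonic stem cells, had 357 and 434 control reads and 3228 and 3527 mDUX reads. Its near copy Zscan4f had 432 and 454 control reads and 3893 and 4013 mDUX reads. The groups stood apart for both genes, with log2 fold changes of 3.05 ± 0.12 for Zscan4c (adjusted p = 2.65e-05) and 3.10 ± 0.14 for Zscan4f (adjusted p = 2.86e-05).

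Zscan4b and Zscan4e were the lowest members. Zscan4b had 24 reads in each control library and 189 and 243 in the mDUX libraries, a log2 fold change of 3.12 ± 0.25 (adjusted p = 0.000371). Zscan4e had 51 and 38 control reads and 328 and 349 mDUX reads, a log2 fold change of 2.86 ± 0.25 (adjusted p = 0.000524). Their errors are the widest of the 5 in this comparison. In the authors' deposited table the transient log2 fold changes were lower for every member, from 1.38 for Zscan4b and 1.51 for Zscan4e to 2.45 for Zscan4c, 2.46 for Zscan4f and 3.02 for Zscan4d, so Zscan4d led there too while Zscan4b came last.

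Induction in the stable cells was measured by comparing unsorted cells with and without doxycycline. All 5 members rose, by 988-fold to 1726-fold. The family took 7.11 and 9.83 RPM without doxycycline and 9226 and 9561 with it, a ratio of 1109. After induction this was 0.939% of gene reads, and 0.620% of all counted reads, repeat families included. In this comparison 34.0% of the 16229 genes tested were called higher and 31.1% lower, and 41.4% were higher without overlap, so a call alone says little here and the size of the change carries the description. The members ranked between 30 and 85 by log2 fold change.

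Zscan4d had 30 and 46 reads without doxycycline and 35955 and 42673 with it. Its log2 fold change was 10.75 ± 0.11 (adjusted p = 3.32e-196). Zscan4c had 40 and 63 reads without doxycycline, more than Zscan4d in both libraries, and 27308 and 33721 with it. In the induced cells the order was the other way around, and the log2 fold change of Zscan4c was 9.95 ± 0.10 (adjusted p = 1.57e-194).

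Zscan4f had 17 and 16 reads without doxycycline and 8971 and 10943 with it, a log2 fold change of 9.97 ± 0.11 (adjusted p = 7.36e-189). Zscan4e had 12 and 19 reads, then 11488 and 13644, a log2 fold change of 10.39 ± 0.11 (adjusted p = 3.22e-191). Zscan4b had 2 and 8 reads, then 4430 and 5258, a log2 fold change of 10.62 ± 0.13 (adjusted p = 1.49e-179). At 0.141 and 0.517 RPM without doxycycline, Zscan4b passed the filter on low counts only through the doxycycline libraries. Its test could hardly have come out otherwise, so no conclusion is drawn from its call. The Zscan4b fold of 1573 rests on those few uninduced reads: without the uninduced library A it was 1031, and without library B 3566.

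The sorted comparison asked how GFP-positive and GFP-negative cells differ after the same induction. All 5 members were higher in the GFP-positive cells, by 72.4-fold to 88.6-fold. The family took 199 and 178 RPM in the GFP-negative libraries and 12718 and 12715 in the GFP-positive ones, so about 1 in 78.6 gene reads of the GFP-positive cells came from these 5 genes. Here 34.3% of the 16403 genes tested were called higher and 32.0% lower, 41.5% were higher without overlap, and the members ranked between 282 and 367 by log2 fold change.

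Zscan4d had 3960 and 3434 reads in the GFP-negative libraries and 149485 and 139900 in the GFP-positive ones. Its log2 fold change was 6.47 ± 0.07 (adjusted p = 2.72e-16), the largest of the 5. Zscan4c had 2397 and 2276 GFP-negative reads and 79147 and 74520 GFP-positive reads, a log2 fold change of 6.22 ± 0.06 (adjusted p = 1.77e-16). The libraries within each group lay close together and far from the other group.

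Zscan4f had 2176 and 1950 GFP-negative reads and 64976 and 66949 GFP-positive reads, a log2 fold change of 6.18 ± 0.07. Zscan4e had 1147 and 979, then 36527 and 37667, a log2 fold change of 6.30 ± 0.08. Zscan4b had 526 and 415, then 16957 and 17227, a log2 fold change of 6.36 ± 0.09. The adjusted p of these 3 members was at most 1.08e-15. All 5 members thus lay close together in size of change.

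**Figure D1:**
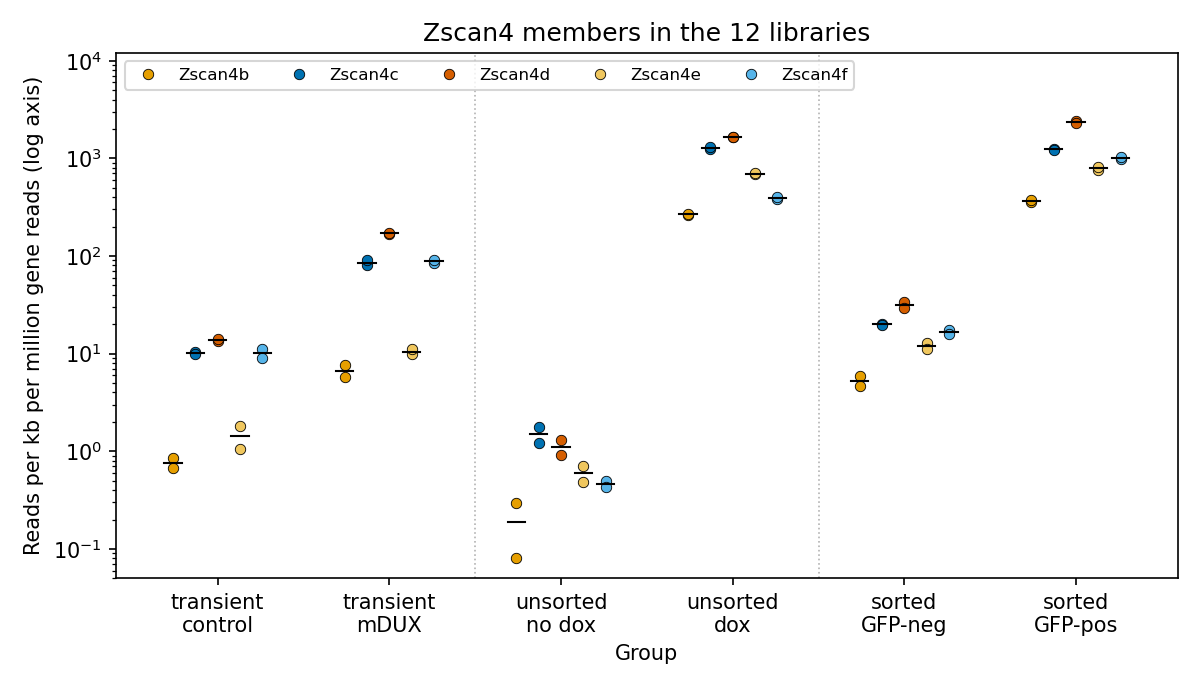
Level of each Zscan4 member in the 12 libraries, in RPM per kilobase of listed length on a log axis, by group. Each point is 1 library and each short line the mean of 2. The uninduced libraries lie lowest, between 0.08 and 1.77, and the GFP-positive libraries reach 2387 for Zscan4d.

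Compared per length, as RPM divided by the listed gene length in kilobases, the levels placed Zscan4d first in 5 of the 6 groups. Zscan4d stood at 13.6 and 14.0 in the transient control, 169 and 172 with transient mDUX, 1640 and 1673 with doxycycline, 33.6 and 29.4 in GFP-negative cells and 2387 and 2305 in GFP-positive cells. In the uninduced stable cells Zscan4c led, at 1.22 and 1.77 against 0.92 and 1.30 for Zscan4d, and the 2 ranges overlap. Zscan4b was lowest in every group, from 0.08 and 0.29 in the uninduced cells to 354 and 371 in the GFP-positive cells.

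Among the 4 stable groups the family rose in the order uninduced, GFP-negative, unsorted doxycycline, GFP-positive. The GFP-negative cells, which had received doxycycline but fell outside the GFP gate, held 22.2 times the family level of uninduced cells in RPM. The family ratios among these groups are in RPM, while the member changes beside them are TMM-scaled, so the sizes of both kinds of value are not comparable. Fitted over the 8 stable libraries, all 5 members were called higher in GFP-negative than in uninduced cells, by 4.31 ± 0.11 for Zscan4c to 5.76 ± 0.14 for Zscan4f on the log2 scale (adjusted p at most 2.19e-17). The background of this contrast was high, with 43.6% of 17820 genes called higher and 34.2% lower. The unsorted and sorted libraries may have been prepared apart, and the set and the sort cannot be told apart in this contrast. Without composition scaling the folds were 28.2 against 42.4 for Zscan4d, 19.8 against 29.8 for Zscan4e, 13.2 against 19.8 for Zscan4c and 36.1 against 54.3 for Zscan4f. Without the uninduced library B the fold of Zscan4b was 96.3 against 40.3.

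The unsorted doxycycline cells held 49.9 times the family level of the GFP-negative cells in RPM. On the TMM scale all 5 members were called, from a log2 fold change of 4.20 ± 0.07 for Zscan4f to 5.64 ± 0.07 for Zscan4c, against a background of 42.2% called higher and 41.0% lower. The last step, from unsorted doxycycline to GFP-positive cells, had a family ratio of 1.35 in RPM. On the TMM scale all 5 members were called higher there, from 0.49 ± 0.06 for Zscan4c to 1.88 ± 0.06 for Zscan4f, beside 37.8% of all genes higher and 39.0% lower. For Zscan4c the direction of this step depended on scaling: with gene totals in place of composition factors the log2 fold change was -0.0436 (adjusted p = 0.498). That scaling gave the other 4 members a positive and called change.

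**Figure D2:**
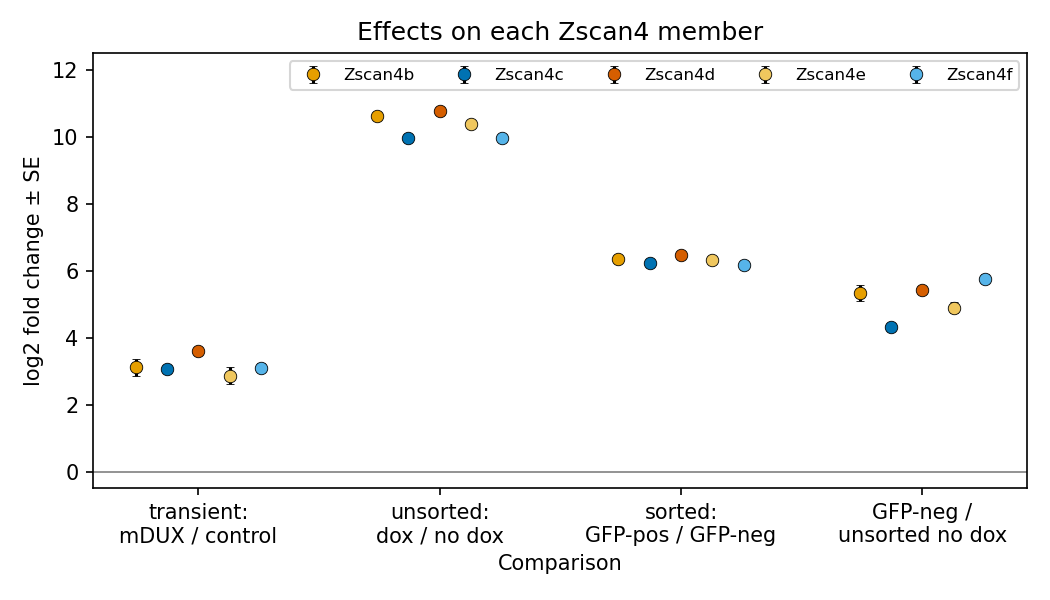
Log2 fold change of each Zscan4 member with its standard error, for transient mDUX over control, doxycycline over no doxycycline, GFP-positive over GFP-negative, and GFP-negative over no doxycycline. The members lie between 2.86 and 3.60 in the transient comparison and between 9.95 and 10.75 in the unsorted one.

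The effect of doxycycline in the stable cells exceeded that of transient mDUX for all 5 members. In a joint fit of the 8 libraries, the difference of the log2 effects was 6.98 ± 0.16 for Zscan4d, 6.72 ± 0.19 for Zscan4c, 6.68 ± 0.20 for Zscan4f, 7.34 ± 0.33 for Zscan4e and 7.32 ± 0.46 for Zscan4b (adjusted p at most 1.96e-07), where 14.1% of 17152 genes had a higher and 22.7% a lower effect with doxycycline. For Zscan4b the difference as a fold was 160, and it was 107 without the uninduced library A and 374 without library B. Both ends of the scale differed between the sets: the transient controls held 81.7 and the uninduced stable cells 8.47 RPM in the family, and transient mDUX and doxycycline cells 818 and 9394. Read format and delivery of the transgene also differ between the sets, and their part was not tested.

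The doxycycline effect was also larger than the difference between sorted cells, by 3.82 for Zscan4c to 4.37 for Zscan4d on the log2 scale, where 20.6% of 17820 genes differed in this direction and 9.87% in the other. For Zscan4b this difference was 4.36, and it was 3.76 without the uninduced library A and 5.59 without library B. The level in the lower group differed between these comparisons, since the GFP-negative cells already carried Zscan4 reads.

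Within each set, the makeup of the family differed between the 2 groups. Zscan4d took 38.9% ± 3.0 (SD, n = 2) of the family reads in transient control cells and 47.8% ± 1.5 after mDUX. Its share was 30.0% ± 0.4 in uninduced cells and 40.5% ± 0.4 after doxycycline. Among the sorted cells its share was 38.4% ± 0.6 when GFP-negative and 42.3% ± 1.0 when GFP-positive. In each set the share of Zscan4d was higher in the group with more family reads, and the libraries of the 2 groups did not overlap. Across the sets the share did not follow the family level. It was 47.8% at 818 RPM with transient mDUX and 42.3% at 12716 RPM in GFP-positive cells.

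**Figure D3:**
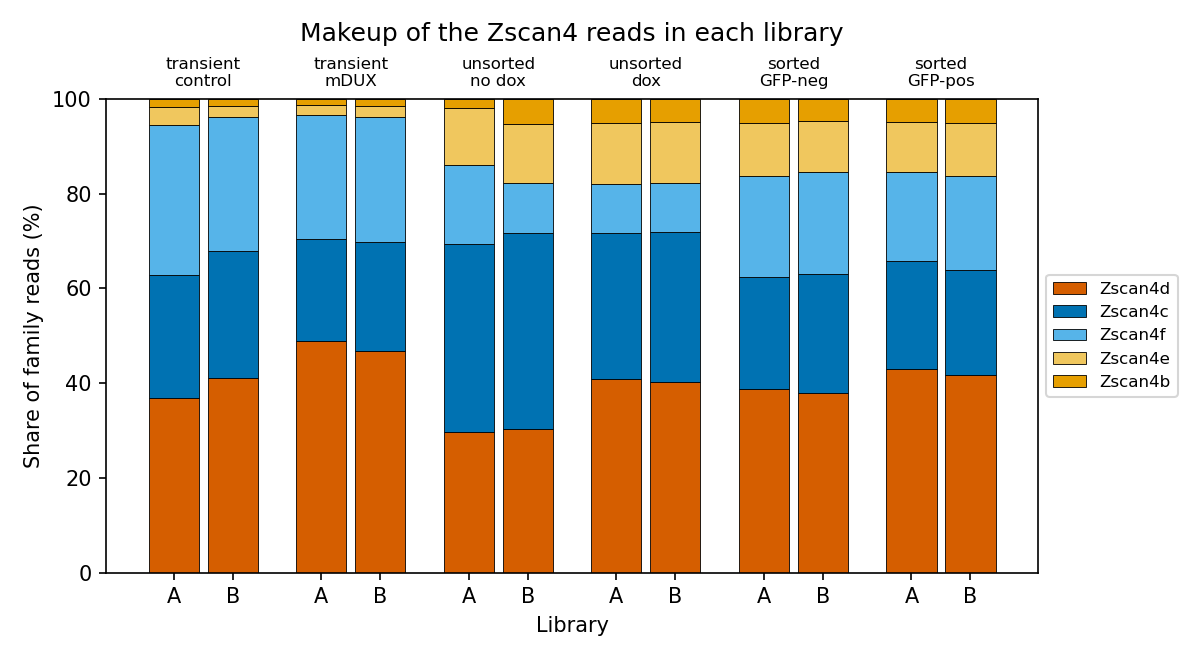
Share of the Zscan4 reads that each member takes, in percent of the family reads, for the 12 libraries. Zscan4d takes 47.8% on average with transient mDUX and 30.0% in the uninduced stable cells.

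The ratio of Zscan4d to Zscan4c reads within a library needs no scaling between libraries. It was 1.41 and 1.52 in the transient control and 2.26 and 2.03 with mDUX. It was 0.75 and 0.73 without doxycycline and 1.32 and 1.27 with it. In sorted cells it was 1.65 and 1.51 in the GFP-negative and 1.89 and 1.88 in the GFP-positive libraries. The ratio was thus higher in every library of the induced or GFP-positive group of each set.

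The mean difference of the log2 ratio over the 3 sets was 0.54, made up of 0.55 (transient), 0.80 (unsorted) and 0.25 (sorted). An exact two-sided permutation test of the labels within each set gave p = 0.009259, the smallest that its 216 arrangements allow. That Zscan4d rose more than Zscan4c was known when the ratio was chosen, so the test is not independent evidence. With the reads of the near copies Zscan4c and Zscan4f summed, an alternative chosen after seeing the data, the mean difference was also 0.54.

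**Figure D4:**
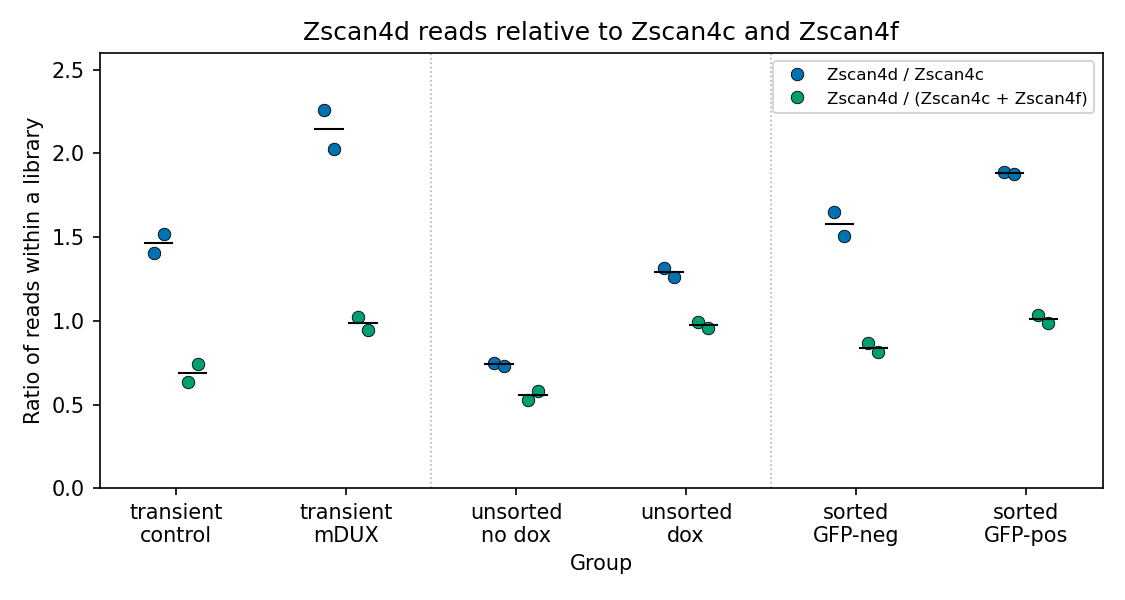
Reads of Zscan4d divided by those of Zscan4c, and by the sum of Zscan4c and Zscan4f, within each library. Points are libraries and short lines are means of 2. Zscan4d to Zscan4c runs from 0.73 in uninduced stable cells to 2.26 with transient mDUX.

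The Zscan4d to Zscan4c ratio also differed between the sets. Its mean was 1.46 in the transient control and 0.74 in uninduced cells, and 2.14 with mDUX and 1.29 with doxycycline. Other parts of the makeup differed more between the sets than with induction. Zscan4b and Zscan4e together took 4.67% ± 1.16 and 3.67% ± 0.29 of family reads in the transient groups but 15.8% ± 2.8 to 17.9% ± 0.2 in the stable groups. The ratio of Zscan4f to Zscan4c reads was 0.329 and 0.325 with doxycycline in the unsorted set, and between 0.82 and 0.91 in the 4 sorted libraries, although these sets share a read format. These genes are the near copies described above, and the part of read assignment in these differences was not tested.

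Lists of genes around the Zscan4 family were compared by their counts. Of 38 other genes of the 2-cell-like state tested in the transient set, 31 rose and 0 fell, beside 2.13% and 0.00668% of all genes. Their median log2 fold change was 3.03, against 0.00 over all genes. In the unsorted set 38 of 38 rose, with a median of 9.49, beside 34.0% of all genes. In the sorted set 39 of 39 were higher, with a median of 6.40, beside 34.3%. Some, such as AF067063 at 0 CPM without doxycycline, passed the filter only through the group where they are high. Among the largest transient changes were Spz1, a transcription factor gene, at 4.15 ± 0.21, and Zfp352, a zinc-finger gene of the 2-cell embryo, at 3.71 ± 0.13. The list was drawn up with earlier results of these data known, and its direction is not independent evidence.

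Of 25 genes known or proposed as regulators of Zscan4, 3 rose and 0 fell with transient mDUX, beside 2.13% and 0.00668% of all genes. Nelfa, a subunit of the negative elongation factor, rose from 157 to 756 CPM, by 2.26 ± 0.10 on the log2 scale (adjusted p = 2.86e-05). Dppa2, which with Dppa4 promotes Dux and Zscan4 transcription, rose by 0.56 ± 0.10. Duxf3, the annotated mouse Dux gene, went from 0.514 to 2.58 CPM, a log2 fold change of 2.29 ± 0.39. It would not have passed the filter on low counts on the control libraries alone. Whether reads of the codon-altered transgene are counted under Duxf3 is not stated. Dppa4 did not pass the test, with a log2 fold change of 0.23 ± 0.12.

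In the unsorted set 12 of the 25 regulators rose and 6 fell, beside 34.0% and 31.1% of all genes. In the sorted set 14 were higher and 4 lower, beside 34.3% and 32.0%. Nelfa went from 59.0 to 2954 CPM with doxycycline (5.65 ± 0.07) and from 165 to 7845 CPM in GFP-positive cells (5.57 ± 0.06). Dppa2 rose by 2.96 ± 0.07 and 2.44 ± 0.06, and Duxf3 by 7.68 ± 0.20 and 5.46 ± 0.20. Duxf3, at 0.253 CPM without doxycycline, passed the filter on low counts in the unsorted set only through the doxycycline libraries. Its call there could hardly have come out otherwise. Zmym2, a zinc-finger gene tied to the repression of the 2-cell-like state, rose by 1.30 ± 0.06 and 1.20 ± 0.05. Trim28, a corepressor of retroviral elements, rose by 0.70 ± 0.06 and 0.69 ± 0.05. Lin28a, an RNA-binding pluripotency gene, fell, with log2 fold changes of -0.97 and -1.41, as did Smarcad1, a chromatin remodeller, with -0.22 and -0.77.

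Of the genes for telomere upkeep and recombination, the process ZSCAN4 is known for, 0 of 26 passed the test in the transient set by edgeR and 0 by DESeq2, and an unadjusted p under 0.05 was found for 0. In the unsorted set 7 of 25 rose and 11 fell, and in the sorted set 10 of 26 were higher and 9 lower, beside 34.0% higher and 31.1% lower of all genes in the unsorted set and 34.3% and 32.0% in the sorted set. Sycp3, a part of the synaptonemal complex of meiosis, rose by 1.22 ± 0.23 and 0.95 ± 0.13. Brca2, a mediator of homologous recombination, rose by 1.04 ± 0.06 and 0.99 ± 0.05. Pot1b, which binds single-stranded telomere DNA in the mouse, fell, with log2 fold changes of -1.17 and -1.23. Tert, the telomerase reverse transcriptase, fell by 1.21 in GFP-positive cells, from 15.5 to 6.72 CPM.

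Other genes with a SCAN domain, taken by the symbol starts Zscan and Zkscan, did not follow the Zscan4 members in size. In the transient set 0 of 22 passed the test in edgeR or DESeq2, and 0 had an unadjusted p under 0.05, with a median log2 fold change of 0.03. In the unsorted set 11 of 23 rose and 4 fell with a median of 0.16, and in the sorted set 7 were higher and 6 lower, around a median of -0.00. Of all genes 34.0% rose and 31.1% fell in the unsorted set, and 34.3% and 32.0% in the sorted set. Zkscan1 rose most, by 2.32 ± 0.06 and 1.99 ± 0.09. Zscan10, a pluripotency factor, was lower in GFP-positive cells, with a log2 fold change of -1.10.

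The embryonic stem cell markers moved the other way in the stable sets. None of 10 passed the test in the transient set in edgeR or DESeq2, and 0 had an unadjusted p under 0.05. In the unsorted set 9 of 10 fell, beside 31.1% of all genes, and in the sorted set 10 of 10 were lower, beside 32.0%, Sox2 with log2 fold changes of -0.92 and -1.22 and Utf1 with -1.44 and -1.37.

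Beside the members on chromosome 7, 44 other annotated genes lie between the outermost Zscan4 genes. None of these was in the transient table, 2 were in the stable tables and 1 was tested. This was Gm26248, annotated as a miRNA at chr7:11303218-11303338, close to Zscan4e. It had 0 reads in both uninduced libraries and 16 and 19 with doxycycline. It had 1 read in each GFP-negative library and 56 and 67 in the GFP-positive ones, with a log2 fold change of 6.89 ± 0.49. Gm26248 passed the filter on low counts only through the doxycycline or GFP-positive libraries. A test of it could hardly have come out otherwise, so no conclusion is drawn from its call.

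Outside the cluster but within 500 kb, 3 genes were tested in the stable sets. Zik1, a zinc-finger gene, was lower, with log2 fold changes of -0.69 and -0.74, and Gm6900, a processed pseudogene, was higher by 0.43 in both. Gm10179 did not pass the test in either set. In the transient set Zik1 was the only one tested, and its change was 0.07 ± 0.13 on the log2 scale (adjusted p = 0.984).

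Across the 12 libraries, 16337 genes with at least 100 reads in all were ranked by how closely their log2 CPM, centred over the libraries, followed that of the summed family. Likeness was the root mean square difference on the log2 scale, with a median of 3.92 over all genes. The nearest were Dcc, a netrin receptor gene, at 0.32, and then Fam90a1a at 0.41, Gm8300 at 0.43, Ankrd22 at 0.43 and AF067061 at 0.43. Sp110, a nuclear body gene, followed at 0.44, Tcstv3 and Phf11a at 0.45, Gm2046 at 0.46 and Tdpoz4 at 0.47. Pearson's r of Dcc with the family was 0.9965, and 9 of these 10 were also among the 10 genes with the highest r. The 12 points share library, set and read format, so these values describe likeness in level and no more.

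**Figure D5:**
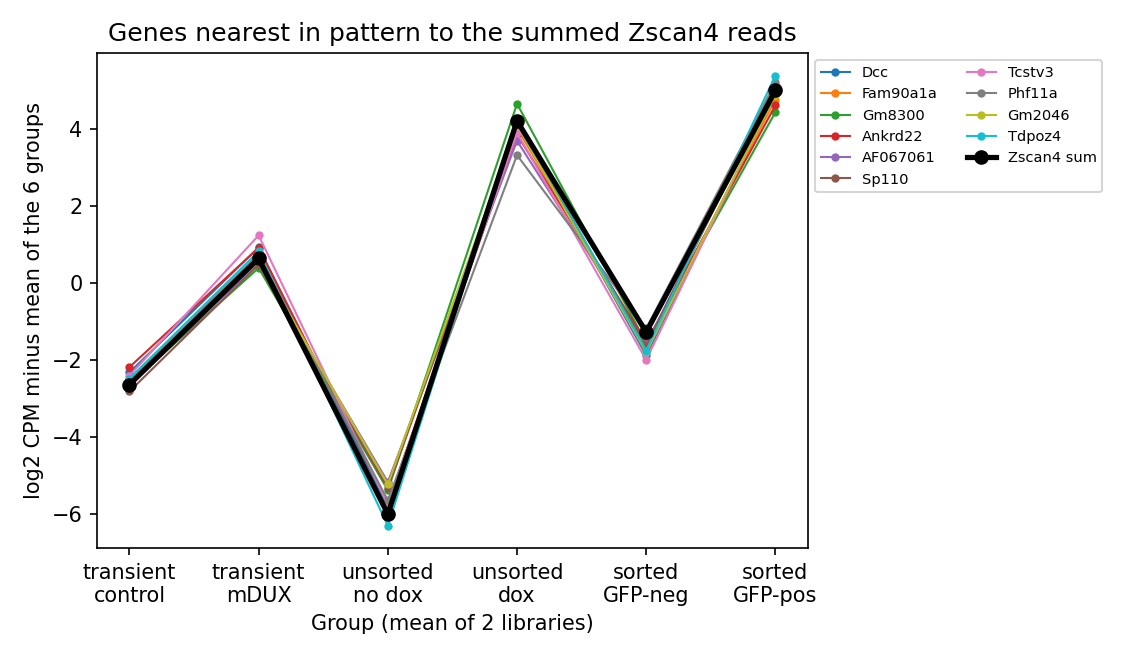
Group means of log2 CPM, minus the mean of the 6 groups, for the summed Zscan4 reads and the 10 genes nearest to them in pattern. All lines are lowest in the uninduced stable cells, and 9 of the 10 nearest genes by this measure are among the 10 with the highest Pearson's r.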

How the data were processed

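RNA was measured in 12 libraries in 6 groups of 2. As deposited, 3 tables gave raw counts of reads per gene and repeat family, per the file headers, with their own log2 fold changes and adjusted p-values. Their unsorted and sorted log2 values run from the uninduced and GFP-negative group over the other. Listed feature lengths stand in bases, and the rlog columns were not used. The submitters' processing notes name Novoalign 2.8, DESeq2 and mm10. How reads were counted, by strand or at several matches, is not stated in the labels or file headers. Spreadsheet dates in place of 27 symbols per table were repaired from the reference.

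The test on counts was that of edgeR 4.0.16 (R 4.3.3; glmQLFit with robust estimation, glmQLFTest), with library size and TMM factors from genes. filterByExpr kept genes (count minimum 10, total minimum 15). Benjamini-Hochberg adjustment ran over all genes tested, with a threshold of 0.05. The standard error is the size of the log2 fold change divided by the square root of F. CPM is TMM-scaled within its own fit. Alternatives included DESeq2 1.42.0, other scalings and filters, and leaving out each library. The scripts were tested on simulated data. Variation between libraries (biological coefficient) was 11.9% for transient, 3.78% for unsorted and 5.04% for sorted cells. The 2 libraries of a group were not duplicates of each other. Between them, chi-square over its degrees of freedom was 30.6 for the transient controls and 1.81 to 6.75 in the other groups. Libraries of different groups were not compared in this way. Transcripts were aligned with Biopython 1.88.

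Column names start at 0 and titles at 1, which ties a column to a group but to no replicate. All members were reported. From the lists, the 5 largest changes among called genes and any regulator could be named, and of the neighbours the called ones. Gm10179, Dppa4 and Zik1 in the transient set were named outside the called genes. The members and lists were chosen with earlier results of these data known.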

Additional observations from a re-analysis of the deposited data

Results flagged for a closer look

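For each member, the log2 effect of doxycycline in the stable cells was larger than the log2 effect of transient mDUX, by a test of the difference itself. The difference was 7.32 for Zscan4b, 6.72 for Zscan4c, 6.98 for Zscan4d, 7.34 for Zscan4e and 6.68 for Zscan4f. Read format and delivery of the transgene also differ between the sets, and their part was not tested.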

How the results depend on the processing

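Of 325 alternative values of the members, 324 kept the direction and the side of the threshold. The exception was Zscan4c from unsorted doxycycline to GFP-positive cells, which was -0.0436 with gene totals in place of composition factors, where the main value was 0.49. That scaling left 4 of the 5 members called there, and shifted the median of all genes by -0.22 for doxycycline and -0.25 between sorted cells. Leaving out 1 library at a time, the log2 fold changes ran from 2.45 to 3.61 in the transient, 9.72 to 11.8 for doxycycline and 6.11 to 6.56 between sorted cells, with the 5 members called each time. The transient count of all genes called was 320, 533 with no filter, and 247 to 2589 with 1 library left out, of which 614 was without control library A and 2589 without control library B, and the cause was not tested. With all counted reads, repeats included, as the denominator, the family share was 0.0748% in transient mDUX, 0.00747% in the transient control, 0.620% with doxycycline and 1.05% in GFP-positive cells. The mean difference of the Zscan4d to Zscan4c log2 ratio ran from 0.51 to 0.56 with 1 library left out. No paired analysis was possible because the columns carry an index of their own that could not be tied to the replicate numbers of the labels, and a fit blocked on that index was not run. Few uninduced reads limit Zscan4b most.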
